A study of Rattus norvegicus with 15 samples.

Results

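Notch1, Notch2, Notch3, Notch4, Jag1, Jag2, Dll4, Hes1, Hey1 and Heyl are the 10 genes described here: 4 receptors, 3 ligands and 3 target genes of the Notch pathway. They were found by their symbols among the 32623 genes of a count table from rat liver, each on a single row, and 9 of the 10 passed the filter on low counts that left 14417 genes to test. Hey1 did not pass and is given by its reads. The table holds 14 livers of male Wistar rats, each library from another animal. The 4 controls (replicates 2 to 5) received neither CCl4 nor any other agent named in the sources. The 5 rats of the cirrhosis group inhaled CCl4, a solvent that injures hepatocytes, and drank water with 0.35 g/L phenobarbital for 12 weeks. The 5 rats of the cirrhosis & eplerenone group had the same regimen and took 100 mg/kg eplerenone, a blocker of the mineralocorticoid receptor, in hazelnut spread from week 8 to week 12. CCl4 and phenobarbital cannot be told apart in these groups, and the sources do not say whether the other groups also had the spread. The rats were matched for age, their livers were taken some days after the last CCl4, and those sequenced had been picked by how well cirrhosis or the treatment had worked. Control replicate 1 was not analysed here.

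Notch signalling passes between touching cells. A Jagged or Delta ligand on one cell binds a Notch receptor on its neighbour, the receptor is cleaved by an ADAM protease and then by gamma-secretase, and the freed intracellular domain joins the DNA-binding protein RBPJ and a Mastermind coactivator to switch on Hes and Hey genes, which encode repressors. In liver the pathway is best known for bile ducts: loss of one copy of JAG1 or NOTCH2 causes the duct-poor liver of Alagille syndrome. Dll4, Notch1 and Notch4 are also known from endothelium, and Notch3 and Heyl from pericytes and vascular smooth muscle.

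The starts of Hes1 and Heyl are shown because these targets gave different results below. Both are the 250 bases before the RefSeq transcription start (assembly GRCr8, another build than the rn6 of the counts), written 5′ to 3′ on the strand of the gene. Capitals mark TGGGAA and the longer GTGGGAA, the core letters of the RBPJ site.
Hes1, chr11:84213046-84213295, minus strand: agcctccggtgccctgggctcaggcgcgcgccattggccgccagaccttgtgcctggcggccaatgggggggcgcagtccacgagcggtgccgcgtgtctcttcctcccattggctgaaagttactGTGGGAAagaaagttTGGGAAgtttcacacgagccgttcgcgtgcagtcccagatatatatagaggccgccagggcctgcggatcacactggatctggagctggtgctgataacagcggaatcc
Heyl, chr5:140793021-140793270, plus strand: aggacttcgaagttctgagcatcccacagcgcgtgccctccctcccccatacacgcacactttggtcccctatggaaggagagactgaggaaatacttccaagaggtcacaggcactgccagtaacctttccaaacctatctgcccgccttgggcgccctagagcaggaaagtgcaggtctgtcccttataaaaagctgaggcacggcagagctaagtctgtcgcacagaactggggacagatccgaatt
In Hes1, GTGGGAA began 124 bases before the start and TGGGAA, which overlaps it, began at 123 and again at 109. The Heyl window held neither on either strand. Of 33469 such windows, 5.27% held GTGGGAA and 22.1% held TGGGAA on at least 1 strand. Of the 10 genes, 8 were in the sequence table with 9 windows. Besides Hes1 only Notch4 held a match, with TGGGAA on the opposite strand at 246 and 93 bases. A match is a description of letters and says nothing of binding in these livers.

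Levels are given as FPM, counted reads per 1000000 reads of the library size after TMM scaling, and differences as log2 fold change (log2FC) with standard error (SE) from edgeR. FDR is the p-value adjusted over all 14417 genes, and a gene was called at an FDR below 0.05. Libraries held 16157491 to 21574767 counted reads, at which 3 reads stand for 0.121 to 0.191 FPM. Scaling factors were lowest in controls (0.847 to 0.877, against 0.925 to 1.40 in the CCl4-treated rats). In liver RNA, fewer cells of a type and less RNA per cell cannot be told apart. Of the hepatocyte markers, Alb, which encodes albumin, stood at 122797 ± 6182 FPM and Ttr, which encodes transthyretin, at 11989 ± 2092 FPM in controls (SD, n = 4). Their means were 79392 and 7340 FPM in cirrhosis and 92031 and 7859 FPM with eplerenone. Against control edgeR called neither, and DESeq2, a second tool, called Ttr lower in cirrhosis (FDR 0.0438). A pair of libraries stood apart on the first principal component, which held 66.6% of the variance: cirrhosis replicate 5 scored −13.0 where the other 4 of its group scored 38.0 to 47.7 and controls −50.6 to −44.3, and cirrhosis & eplerenone replicate 3 scored 42.6, above the other 4 of its group (−26.8 to 18.5). Results that rest on them are given with and without them.

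The target gene Heyl was higher in cirrhotic liver than in control liver. Of the other targets, Hes1 was not called, and Hey1 had fewer reads in cirrhosis. Heyl was the only member called in cirrhosis against control, 1 of 9 tested, where 13.4% of all genes tested were called higher and 6.71% lower. DESeq2 called Heyl and Jag2, where it called 17.9% of all genes higher and 9.93% lower. Without cirrhosis replicate 5, edgeR called Notch4 and Jag2 higher as well, in a fit that called 18.0% of all genes higher and 14.1% lower. That library lay toward the controls on the first principal component, so leaving it out sets the groups further apart by design. No conclusion is drawn from these calls, and each gene was called in only 1 of the 14 fits without 1 library. With all 14 livers, the members' median log2FC was 0.02, beside −0.01 over all genes tested.

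Heyl encodes a repressor of the Hes and Hey family. Its levels in the controls were 2.47, 1.33, 2.87 and 2.04 FPM in replicates 2 to 5. In cirrhosis replicates 1 to 5 they were 11.5, 9.38, 13.3, 9.74 and 2.92 FPM. All 5 cirrhotic livers lay above all 4 controls, but replicate 5 only just, and 11.2% of all genes tested were likewise higher without overlap. Mean levels were 2.18 ± 0.659 FPM (SD, n = 4) and 9.37 ± 3.93 FPM (n = 5), a log2FC of 2.10 with an SE of 0.41 and an FDR of 0.00400. Heyl was called in each of the 14 fits that left out 1 library each, and its log2FC was 2.33 without cirrhosis replicate 5.

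Hes1, the Notch target most widely used as a readout, was not called. Control levels were 23.3, 22.9, 59.4 and 21.2 FPM, and cirrhosis levels 32.6, 15.1, 38.7, 33.7 and 40.9 FPM. Replicate 4 alone lay far above the other controls, and the groups overlapped. The log2FC was 0.02 with an SE of 0.35 (FDR 0.970), and it ranged from −0.13 to 0.51 when 1 library was left out, reaching 0.51 without control replicate 4.

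Hey1, known as a target in endothelium, was sparse and pointed the other way. The controls held 3, 16, 13 and 5 reads of it, 37 in all, and the cirrhotic livers held 1 read in all, in replicate 2. Every cirrhotic liver was below every control, as for 9.03% of the genes that passed the filter, although a count of 0 allows up to 3 reads, as many as control replicate 2 held. The ratio of cirrhosis to control per scaled library was 0.0183, with an exact 95% interval of 0.000452 to 0.109 that covers counting error only. With no filter on low counts Hey1 had a log2FC of −5.07 and was called (FDR 0.0122 over 21282 genes), and that fitted value depends on a prior count.

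**Figure D1:**
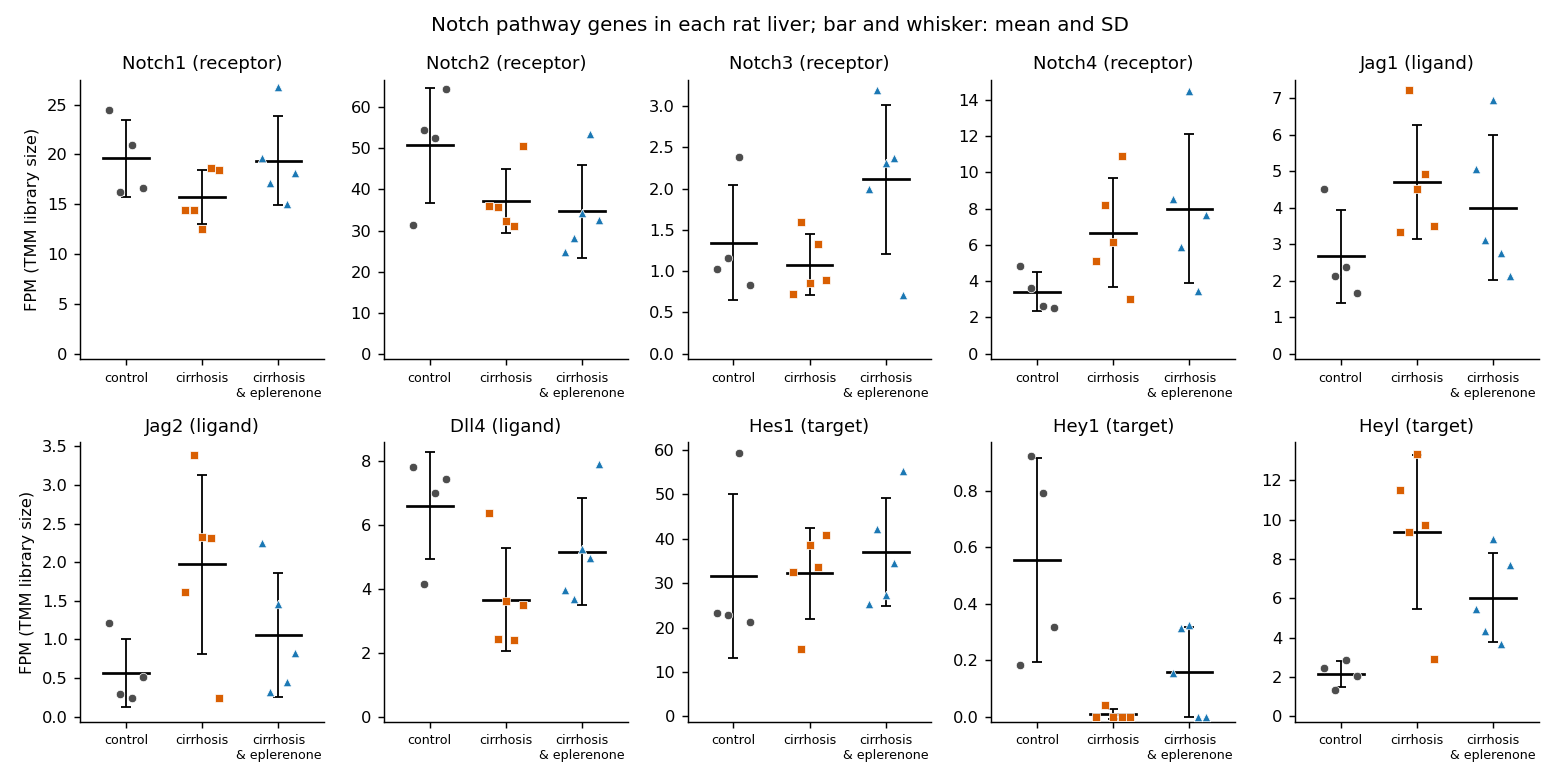
Level of each of the 10 genes in every liver (FPM, linear axes that differ between panels), by group, with the mean and SD as bar and whisker. Heyl was at 2.92 FPM or more in every CCl4-treated rat and at 2.87 FPM or less in every control, whereas Hes1 overlapped between groups and Hey1 had 1 read in all cirrhotic livers.

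Among the ligands, the Jagged genes had higher means and Dll4 a lower mean in cirrhosis, and none was called. Jag2 had the largest fold among these 3 ligands, at the lowest mean FPM. The controls held 1.21, 0.289, 0.244 and 0.509 FPM, and the cirrhotic livers 1.61, 3.39, 2.32, 2.31 and 0.238 FPM. Cirrhosis replicates 1 to 4 were above every control, and replicate 5, with 4 reads, was below them all. The log2FC of Jag2 was 1.81 with an SE of 0.73 (FDR 0.0859; 0.0395 by DESeq2), and without cirrhosis replicate 5 it was 2.09 with an FDR of 0.0231. That fit called 18.0% of all genes higher and 14.1% lower, and no other fit without 1 library called Jag2.

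Jag1, the ligand tied to bile duct formation, ranged from 1.65 to 4.52 FPM in controls and from 3.33 to 7.22 FPM in cirrhosis. Only control replicate 2 reached into the cirrhosis range. The log2FC was 0.81 with an SE of 0.40 (FDR 0.149), and no fit that left out 1 library called it. Dll4, the ligand of endothelium, had levels of 7.84, 4.16, 7.02 and 7.44 FPM in controls and 6.38, 2.45, 3.61, 2.41 and 3.51 FPM in cirrhosis. Cirrhosis replicate 1 lay among the controls and the other 4 lay below them all. The log2FC of Dll4 was −0.85 with an SE of 0.33 (FDR 0.0741). Without cirrhosis replicate 1 it was −1.12 with an FDR of 0.0291, the only call of Dll4 in the 14 fits without 1 library. That fit called 9.95% of all genes higher and 3.04% lower. It leaves out the cirrhotic liver with the highest Dll4 level, so no conclusion is drawn from this call.

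Jag1, Jag2 and Dll4 were set against each other within a liver, which takes out the scaling between libraries. The reads on these 3 ligands were divided differently in cirrhosis, with less on Dll4 and more on the Jagged genes. Dll1, another ligand gene given below, is not part of these shares. Dll4 took 67.8% ± 8.96 of the reads on the 3 ligands in controls (SD, n = 4) and 36.6% ± 15.7 in cirrhosis (n = 5). The ranges, 57.8 to 77.5% and 18.8 to 56.4%, did not overlap. Jag2 went from 5.28% ± 2.67 to 17.9% ± 9.31 and Jag1 from 26.9% ± 7.55 to 45.5% ± 9.99. In the eplerenone group the share of Dll4 was 51.8% ± 15.6 and overlapped both other groups. Among the targets, Heyl held 7.00% ± 2.45 of the reads in controls and 23.8% ± 11.3 in cirrhosis, with Hes1 at 91.3% and 76.2%. These shares were chosen after the levels were known, are not corrected for gene length and were not tested.

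**Figure D2:**
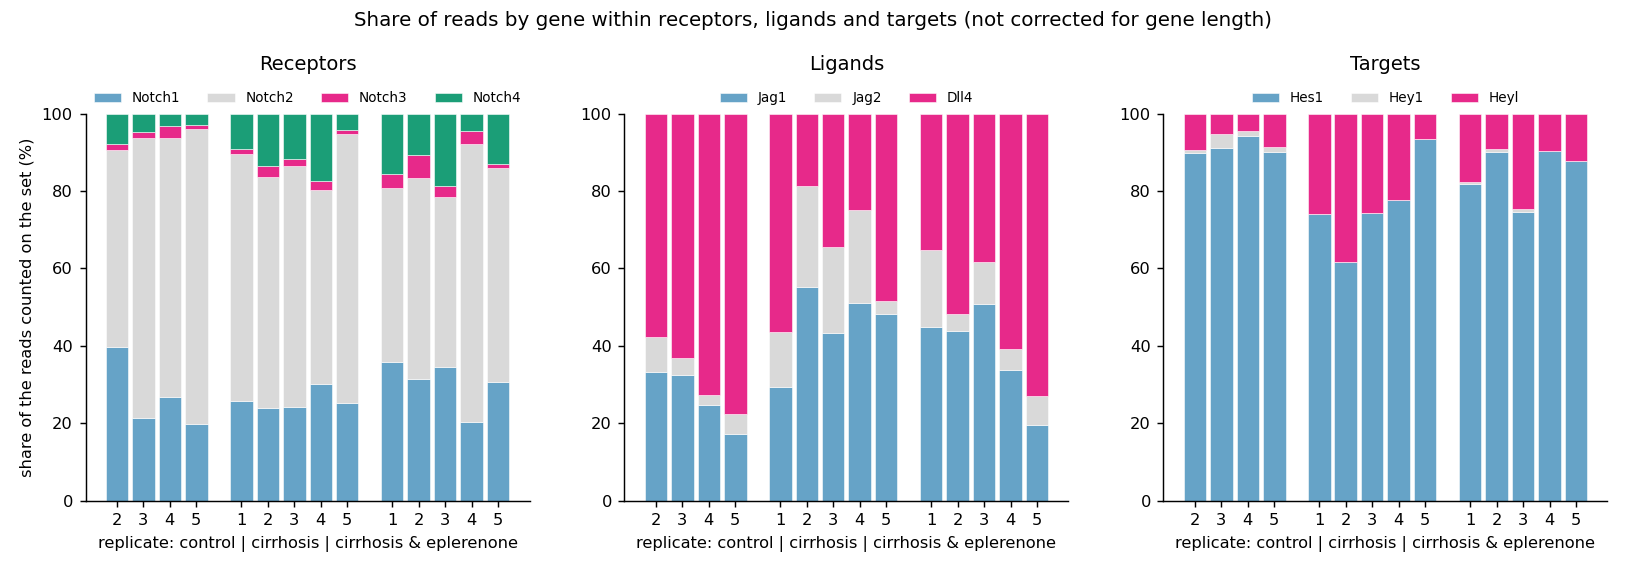
Share of reads (%) of each gene among the receptors, the ligands and the targets, 1 bar per liver, labelled by replicate and set in the order control, cirrhosis, cirrhosis & eplerenone. Dll4 held at least 57.8% of the reads on Jag1, Jag2 and Dll4 in each control and at most 56.4% in each cirrhotic liver. The shares were chosen after the levels were known and were not tested.

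Of the receptors, Notch4 had the higher mean in cirrhosis, and Notch1, Notch2 and Notch3 had lower means. Notch4, the receptor of endothelium, stood at 4.83, 3.64, 2.63 and 2.54 FPM in controls and at 5.10, 8.20, 6.15, 10.9 and 3.04 FPM in cirrhosis. Again cirrhosis replicates 1 to 4 were above every control and replicate 5 was within their range. The log2FC was 0.97 with an SE of 0.41 (FDR 0.103), and 1.15 with an FDR of 0.0374 without replicate 5. No other fit without 1 library called Notch4, and leaving out that replicate sets the groups further apart by design.

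Notch2, the receptor of bile duct formation, had 31.4, 54.5, 52.5 and 64.5 FPM in controls and 35.9, 35.8, 32.4, 31.1 and 50.5 FPM in cirrhosis. Control replicate 2 was as low as the cirrhotic livers, and cirrhosis replicate 5 was close to the other controls. The log2FC was −0.45 with an SE of 0.24 (FDR 0.186). Notch1, a receptor of many cell types, had means of 19.6 ± 3.90 and 15.7 ± 2.72 FPM (log2FC −0.32, SE 0.20, FDR 0.246). Notch3, the receptor of mural cells, had means of 1.35 ± 0.702 and 1.08 ± 0.366 FPM (log2FC −0.31, SE 0.45, FDR 0.628). Both overlapped between the groups. The log2FC of Notch3 was 0.00 when libraries were scaled to total counted reads, under which the median of all genes moved up by 0.28, the calls over all genes went from 1939 higher and 967 lower to 3055 and 366, and Heyl was still the only member called.

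**Figure D3:**
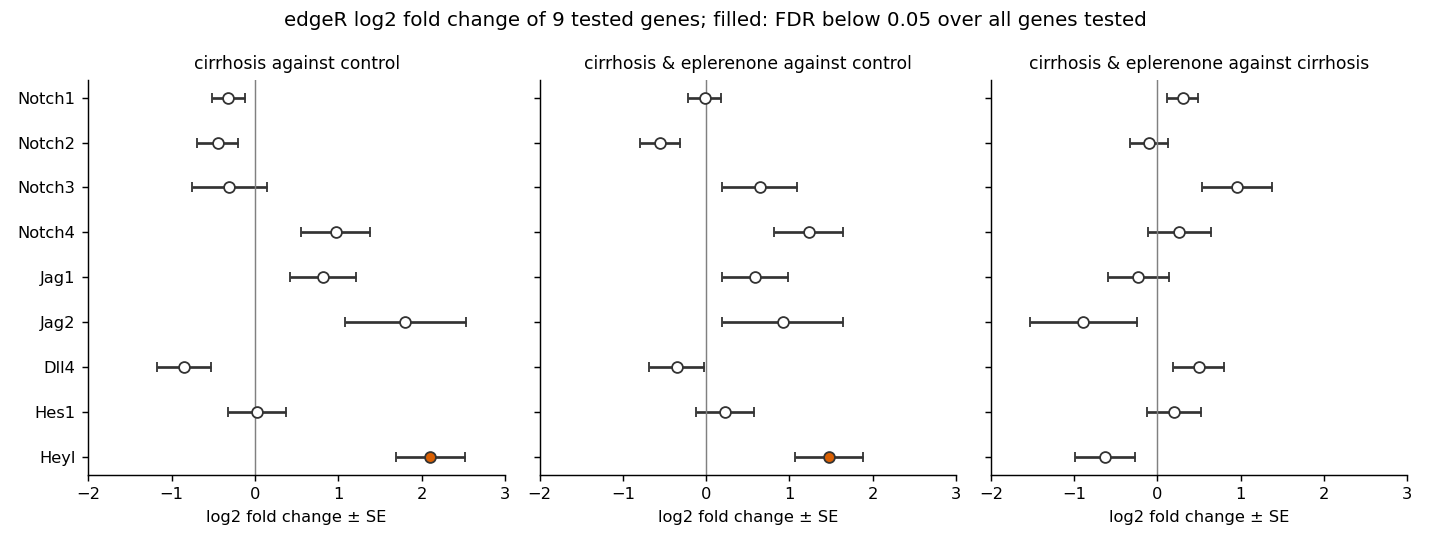
log2 fold change with SE (edgeR) of the 9 tested genes in the 3 comparisons, with filled points for an FDR below 0.05. Heyl alone was called in both comparisons with control (2.10 and 1.47), and no gene was called between the CCl4-treated groups.

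In the rats that also took eplerenone, Heyl was again above control and was again the only member called, 1 of 9, where 4.33% of all genes tested were called higher and 0.895% lower. Its levels were 5.47, 4.32, 9.03, 3.67 and 7.70 FPM in replicates 1 to 5, a mean of 6.04 ± 2.27 FPM (SD, n = 5). The lowest was above the highest control, as for 6.42% of all genes tested. The log2FC was 1.47 with an SE of 0.41 and an FDR of 0.0470, close to the threshold. Of the 14 fits without 1 library, 4 called Heyl, those without cirrhosis replicate 3 or 5 or cirrhosis & eplerenone replicate 2 or 4. The FDR ran from 0.0109 to 0.143 over the 14 and was 0.122 without replicate 3 of the eplerenone group, which stood apart, and 0.147 with the replicate number as a block. This comparison shares its controls with the one above.

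Notch4 had the next largest difference from control among the 9 tested members in the eplerenone group, at 8.54, 5.88, 14.5, 3.44 and 7.65 FPM. Replicate 3 was the highest, and only replicate 4 lay within the control range. Its log2FC was 1.23 with an SE of 0.42 (FDR 0.0995). DESeq2 called it (FDR 0.0357), where it called 8.44% of all genes higher and 2.12% lower. Notch2 was at 24.7, 28.1, 34.2, 53.6 and 32.5 FPM (log2FC −0.55, SE 0.24, FDR 0.207), with the groups overlapping. The ligands Jag1 (4.01 ± 1.98 FPM, log2FC 0.59, FDR 0.450), Jag2 (1.06 ± 0.800 FPM, log2FC 0.92, FDR 0.535) and Dll4 (5.17 ± 1.67 FPM, log2FC −0.36, FDR 0.611) overlapped with control. So did Hes1 (37.0 ± 12.2 FPM, log2FC 0.22, FDR 0.792), Notch1 (19.4 ± 4.48 FPM, log2FC −0.02, FDR 0.976) and Notch3 (2.11 ± 0.901 FPM, log2FC 0.65, FDR 0.466). Hey1 was read 3, 5, 8, 0 and 0 times, and its ratio to control was 0.296 (exact 95% interval 0.154 to 0.546, counting error only). Unfiltered, it was not called against control (log2FC −1.73, FDR 0.403).

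Between the CCl4-treated groups, with and without eplerenone, none of the 9 members was called by edgeR or DESeq2, where edgeR called 0.0139% of all genes tested higher and 0% lower, and DESeq2 0.264% and 0.25%. At an unadjusted p under 0.05 there was 1 member of 9, Notch3, where 14.4% of all genes were under it. Its levels were 0.721, 1.59, 0.863, 1.33 and 0.893 FPM in cirrhosis and 1.99, 3.19, 2.31, 2.37 and 0.710 FPM with eplerenone. Eplerenone replicates 1 to 4 lay above every rat given CCl4 alone, and replicate 5 lay below them all. The log2FC was 0.96 with an SE of 0.42 (FDR 0.329).

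Heyl had a lower mean with eplerenone than without (log2FC −0.63, SE 0.36, FDR 0.401), and the groups overlapped. Without cirrhosis replicate 5 and eplerenone replicate 3 together, the log2FC was −1.07 with an FDR of 0.0377, in a fit that called 4.46% of all genes higher and 4.70% lower. Both libraries were picked because each lay toward the other group on the first principal component. Leaving them out thus sets the groups further apart by design, and no conclusion is drawn from this call. Leaving out either alone gave no call (FDR 0.102 and 0.234). The animal labels open with a number whose meaning is not stated, 15 or 20 in the CCl4-treated rats and 13 or 16 in controls, so that it and CCl4 cannot be told apart. Among rats with 15, Heyl averaged 11.4 FPM without eplerenone (n = 3) and 4.89 FPM with it (n = 2). Among those with 20 it averaged 6.33 (n = 2) and 6.80 FPM (n = 3). With all rats, the lower mean was thus present within only 1 of the label numbers. Both libraries that stand apart carry 20. Without them, rats with 20 were at 9.74 FPM without eplerenone and at 3.67 and 7.70 FPM with it. The difference between the label numbers, tested with all rats after the means were seen, was not called (interaction 1.36 on the log2 scale, FDR 0.442).

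The other members differed as follows between these groups. Dll4 had a log2FC of 0.49 (SE 0.31, FDR 0.432), and its mean with eplerenone was higher within label number 20 (6.05 against 2.96 FPM) and not within 15 (3.84 against 4.15 FPM). The difference between the label numbers was not called (interaction 1.19 on the log2 scale, FDR 0.443). Jag2 had a log2FC of −0.89 (SE 0.64, FDR 0.491) and Jag1 of −0.23. Notch1 (0.30), Notch4 (0.26) and Hes1 (0.20) had positive and Notch2 (−0.10) negative values, each with an FDR above 0.4. Hey1 had 1 read in all without eplerenone and 16 in all with it (3, 5, 8, 0 and 0 in replicates 1 to 5), and the groups overlapped. Its ratio is given the other way round, as the group without eplerenone over the group with it. That ratio was 0.0618 per scaled library (exact 95% interval 0.00147 to 0.398, counting error only). The unfiltered fit did not call Hey1 (FDR 0.376).

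Of 52 other genes of the pathway, 50 were in the table under their symbols and 42 passed the filter. In cirrhosis against control, 6 of the 42 were called higher and 3 lower, and their median log2FC was −0.02. These counts lie near the shares over all genes given above. They were 8 and 5 with DESeq2 (17.9% and 9.93% of all genes) and 6 and 6 without cirrhosis replicate 5 (18.0% and 14.1%). Scaled to total counted reads they were 9 and 0 (21.2% and 2.54%). With at least 10 counts in every sample, which left 11199 genes to test, they were 3 and 0 (11.9% and 5.81%). With eplerenone, edgeR called 4 higher than control and 0 lower, where it called 4.33% and 0.895% of all genes. DESeq2 called 5 and 0, where its shares were 8.44% and 2.12%. At an unadjusted p under 0.05 there were 7, where 20.5% of all genes were under it. Between the CCl4-treated groups both tools called 0 of the 42, and 11 had an unadjusted p under 0.05, to be read against the 14.4% of all genes. Without both libraries that stand apart, each picked for lying toward the other group, edgeR called 4 higher and 1 lower with eplerenone. That fit called 4.46% of all genes higher and 4.70% lower.

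The genes called higher act at several steps. Aph1b encodes a subunit of gamma-secretase and stood at 29.3 ± 3.28 FPM in controls, 95.5 ± 27.1 in cirrhosis and 64.1 ± 19.1 with eplerenone, a log2FC from control of 1.71 (FDR 0.00116) and 1.13 (FDR 0.0175). Mfng encodes a Fringe glycosyltransferase that modifies Notch receptors and stood at 0.762, 3.57 and 2.28 FPM (log2FC 2.22 and 1.58, FDR 0.00181 and 0.0221). Dtx3, of the Deltex ubiquitin ligases, stood at 9.29, 20.6 and 17.5 FPM (log2FC 1.15 and 0.91, FDR 0.00230 and 0.0163). In these 3 genes, and in Numbl, a relative of the Notch inhibitor Numb, each CCl4-treated rat of either group was above each control, which in the separate comparisons held for 11.2% and 6.42% of all genes. Numbl averaged 0.380, 2.05 and 1.52 FPM (log2FC 2.42 and 1.99, FDR 0.00692 and 0.0371). All 4 were called in cirrhosis in each of the 14 fits without 1 library, and with eplerenone in 9 to 11 of them. Without eplerenone replicate 3, which stood apart, Mfng (FDR 0.0588) and Numbl (FDR 0.0992) were not called with eplerenone, and with the replicate number as a block none of the 4 was (FDR 0.0525 to 0.0952).

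Dlk1, a ligand-like protein of fetal liver that lacks the domain by which Delta ligands bind Notch, was not read in any control. In cirrhosis it had 9, 94, 27, 35 and 19 reads, and with eplerenone 15, 3, 19, 0 and 3. Its mean in cirrhosis was at least 9.57-fold higher than 3 reads per control library (FDR 0.00459), and it was called without each library in turn. Hes7, a target of the segmentation clock, was also sparse, at 0 to 3 reads in controls and 3 to 23 in cirrhosis (log2FC 3.08, FDR 0.0310), and it was called in 7 of the 10 fits without 1 library in which it passed the filter.

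The 3 genes called lower were less stable. The ligand gene Dll1 fell from 9.86 ± 4.02 to 5.09 ± 1.78 FPM (log2FC −0.95, FDR 0.0392). Ep300, a histone acetyltransferase that works with the Notch complex, fell from 1.28 ± 0.416 to 0.273 ± 0.282 FPM (log2FC −2.22, FDR 0.0414). Numb, whose product restrains Notch receptors, fell from 20.9 ± 4.28 to 9.43 ± 5.33 FPM (log2FC −1.15, FDR 0.0436). Without 1 library in turn, Dll1 was called in 8 of 14 fits, Numb in 5 and Ep300 in 4, and with eplerenone none of the 3 was called against control. Rbpj and the other tested genes of the nuclear complex, the ligand-ubiquitinating enzymes and the 9 corepressors gave no further call by edgeR. DESeq2 called the corepressors Hdac1 (FDR 0.0353), higher, and Hdac2 (FDR 0.0351), lower. In other rows of the pathway it also called Lfng, another Fringe gene, higher (FDR 0.0217) and Itch, listed with inhibitors and turnover, lower (FDR 0.0192).

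**Figure D4:**
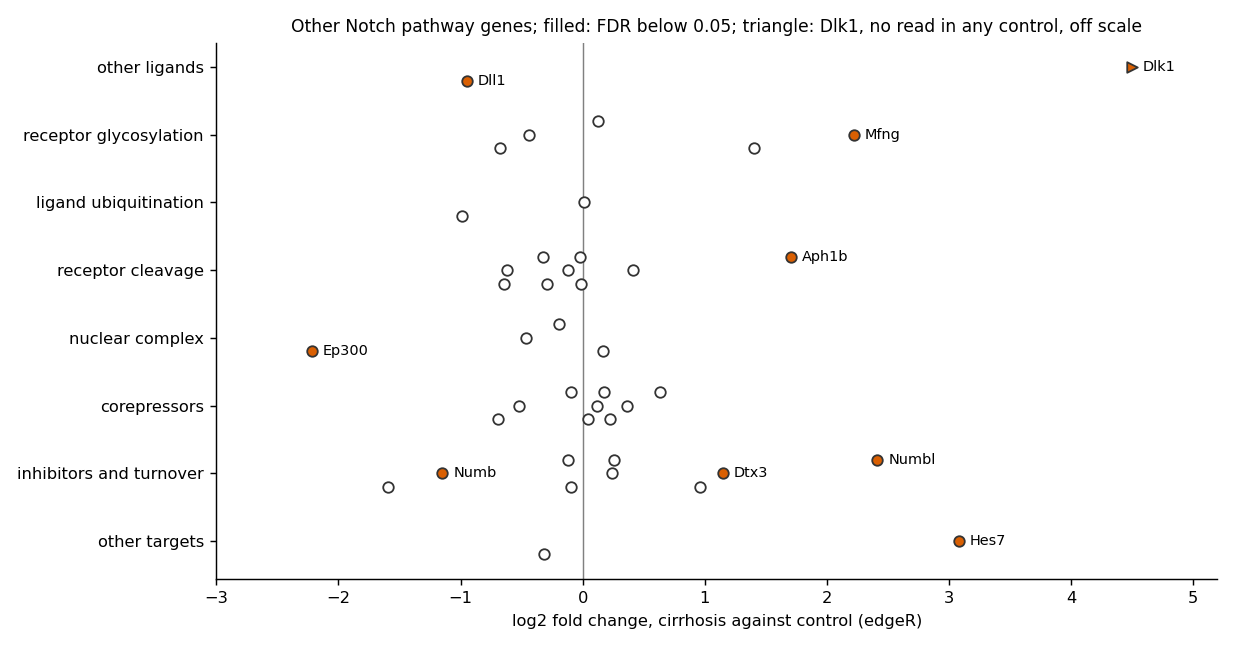
log2 fold change, cirrhosis against control, of 42 other pathway genes in rows by their step in the pathway, with filled points and names for an FDR below 0.05. The 6 filled points on the right and 3 on the left fall in 6 of the 8 rows. Dlk1 is drawn as a triangle at the right edge because no control read it.

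Marker lists of several liver cell types also differed between the groups. The 8 cholangiocyte markers summed to 31.3 to 41.0 FPM in controls, 82.5 to 163 in cirrhosis and 62.3 to 151 with eplerenone, and 7 of 8 were called higher in cirrhosis, among them Epcam (13.2 to 55.0 FPM). The smooth muscle and pericyte markers summed to 8.84 to 16.4, 15.5 to 110 and 15.5 to 98.8 FPM, with 2 of 4 tested called higher, Tagln and Acta2. The stellate and mesenchymal markers summed to 152 to 255, 273 to 480 and 383 to 521 FPM, with 4 of 8 called higher, among them Col3a1, which made up most of the sum, but not Pdgfrb. In the same list Lrat (16.9 and 7.93 FPM, FDR 0.118) and Reln (14.4 and 7.16 FPM, FDR 0.110), markers of quiescent stellate cells, had lower means in cirrhosis and were not called. Cirrhosis replicate 5, where Heyl, Jag2 and Notch4 were lowest of their group, had the lowest sums of its group in all 3 lists, 82.5, 15.5 and 273 FPM. In the eplerenone group, replicate 3, where Heyl, Notch4 and Jag1 were highest, had the highest cholangiocyte and smooth muscle sums, 151 and 98.8 FPM. Jag2 was highest in replicate 1 (2.25 FPM), and the stellate sum was highest in replicate 2 (521 FPM). Heyl was lowest in replicate 4 of that group, whereas replicate 2 had the lowest cholangiocyte and smooth muscle sums, 62.3 and 15.5 FPM. The part of these cells in the levels of the Notch genes was not tested.

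The endothelial markers went both ways. They summed to 183 to 211 FPM in controls, 139 to 294 in cirrhosis and 173 to 249 with eplerenone. Of the 8 in the table, 1 was called higher in cirrhosis, Vwf (12.7 ± 3.17 to 81.9 ± 42.1 FPM), and 1 lower, Kdr (52.9 ± 13.4 to 24.7 ± 6.98 FPM), with Eng at 69.1 and 60.6 FPM. Of the others, Cdh5 (17.9 and 18.0 FPM) and Tek (11.7 and 10.9 FPM) had means close to control. Tie1 (22.8 and 31.2 FPM) and Emcn (4.19 and 9.36 FPM) had higher means in cirrhosis, and Erg (2.84 and 1.37 FPM) a lower mean. DESeq2 called Emcn (FDR 0.0267) and Erg (FDR 0.0371), and edgeR called none of these. Which vessels the Dll4 and Notch4 reads came from was not tested. Hepatocyte markers summed to 135808 to 150475, 73738 to 141420 and 73188 to 132872 FPM, and 1 of 8 was called, Hnf4a, lower. The highest sum of the cirrhosis group was that of replicate 5. Macrophage markers summed to 187 to 327, 85.1 to 307 and 136 to 376 FPM with 1 of 6 called lower, Cd163, and neither Clec4f nor Csf1r called. Lymphocyte markers summed to 3.01 to 6.23, 5.71 to 10.5 and 2.88 to 9.78 FPM with 1 of 5 tested called higher, Cd3e, and neither Cd8a nor Cd79a called. Between the CCl4-treated groups edgeR called 0 of the 47 markers tested. At an unadjusted p under 0.05 there were 8, where 14.4% of all genes tested were under it. DESeq2 called 1 marker, the endothelial gene Erg, higher with eplerenone.

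**Figure D5:**
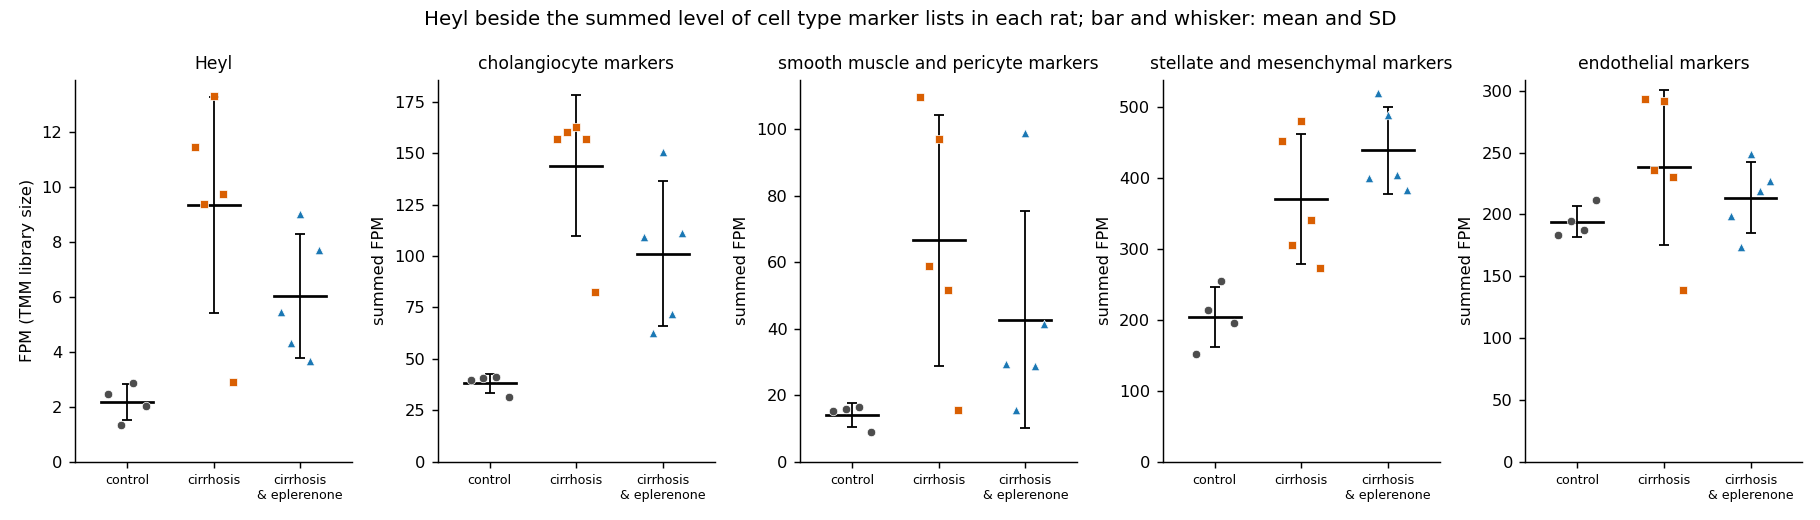
Heyl (FPM) beside the summed FPM of 4 marker lists in every liver, by group, with mean and SD. The cirrhotic liver with the lowest Heyl (2.92 FPM) also had the lowest cholangiocyte, smooth muscle, stellate and endothelial sums of its group.

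Likeness was measured as Pearson's r of log2 FPM over the 14 livers after each group's mean was taken off, so that it describes rats within groups and not the treatment. The livers share library depth, scaling and the libraries that stand apart, and r is a description. Of 13627 protein coding genes, St6galnac2, a sialyltransferase (r = 0.96, rho = 0.92), and Fkbp10, a chaperone of collagen (r = 0.96, rho = 0.96), were most like Heyl. Without the 2 livers farthest from the Heyl median, r was 0.92 and 0.91. Notch4 was most like Plat, tissue plasminogen activator (r = 0.92, rho = 0.92), and Fam107a (r = 0.92, rho = 0.85). Jag2 was most like Ndrg1 (r = 0.93, rho = 0.89) and Pear1 (r = 0.93, rho = 0.92), and Jag1 most like Slx4 and Cd226 (r = 0.92 and 0.90).

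For the remaining members the leading genes were Aplf and Prpf40b for Notch1, Mroh2a and Adat1 for Notch2, Nap1l3 and LOC690276 for Notch3, Cfp and Elp5 for Dll4, and Tpcn2 and Xrcc6 for Hes1, with r from 0.85 to 0.92. LOC690276 fell to an r of 0.67 without the 2 livers farthest from the Notch3 median. Among the members themselves, the closest pairs were Notch4 with Jag2 (r = 0.77, rho = 0.75), Jag2 with Heyl (r = 0.71, rho = 0.46) and Notch4 with Jag1 (r = 0.71, rho = 0.75). Notch2 ran against Notch4 (r = −0.68, rho = −0.61).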

How the data were processed

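Liver RNA of 14 rats was poly(A) selected, fragmented and read at 150 bp from both ends by the authors. They mapped reads to rn6 with HISAT2 2.1.0 and counted them over exons with featureCounts, reads with several positions at each of them. The deposited values are raw counts per gene with no normalization. The strand setting is not given in the sources used here, so a gene and an antisense partner cannot be told apart. Libraries are different rats, and replicate numbers come from the titles.

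The 3 groups were fitted together in R 4.3.3 with the quasi-likelihood test of edgeR 4.0.16 after filterByExpr (smallest count 10) and TMM scaling. The Benjamini-Hochberg adjustment covered the 14417 genes. DESeq2 1.42.0 and the settings in the closing section were alternatives. Log2 FPM for likeness used a prior count of 2. The Hey1 interval is an exact binomial one. Steps were tested on simulated data.

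All 10 members are named, as are pathway genes called in cirrhosis and the 2 highest markers per list, of which 1 is not reported here. Erg, Kdr, Cdh5, Tek, Tie1, Emcn, Hnf4a, Cd163, Cd3e, Rbpj, Hdac1, Hdac2, Lfng, Itch, Lrat and Reln were named after their values were seen. Members and lists were chosen with earlier results of these data known. Gene length was not corrected for, so levels and shares of reads do not rank the genes by amount of transcript.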

Additional observations from a re-analysis of the deposited data

Results flagged for a closer look

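Of the 30 groups of values, 10 genes in 3 groups, 3 held a liver that lay far from the rest of its group by Dixon's test at 95%, a test that flags about 1 in 20 groups by chance. Notch2 in cirrhosis replicate 5 was at 50.5 FPM, where the next highest was 35.9 and the lowest 31.1 FPM. Hes1 in control replicate 4 was at 59.4 FPM, where the next highest was 23.3 and the lowest 21.2 FPM. Hey1 in cirrhosis replicate 2 was at 0.0408 FPM, which is 1 read, where the other 4 were at 0. With the other 4 at 0 any read is flagged, so nothing is read from this flag.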

How the results depend on the processing

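In cirrhosis against control the number of members called was 1 (Heyl). It became 2 with no filter (Heyl higher and Hey1 lower), where 8.61% of all genes were called higher and 3.65% lower. With DESeq2 it was 2 (Heyl and Jag2), where the shares were 17.9% and 9.93%. It was 3 without cirrhosis replicate 5 and cirrhosis & eplerenone replicate 3 together (Heyl, Jag2 and Notch4), where they were 19.3% and 14.9%. Without 1 library each it was 1 to 3. For cirrhosis & eplerenone against control it was 1 (Heyl) and became 2 with DESeq2 (Heyl and Notch4), 0 with at least 10 counts in every sample (Heyl FDR 0.0543), 0 with the replicate block (Heyl FDR 0.147), and 0 to 1 without 1 library each. Between the CCl4-treated groups it was 0 and became 1 (Heyl) without both libraries named above, each picked for lying toward the other group. It stayed at 0 without 1 library each. The cause was not tested. With the replicate block the calls over all genes went from 2906, 753 and 2 to 1743, 270 and 0. Correlations of same-numbered rats ran from −0.33 to 0.19, and the samples did not all correlate best with their own number, so the numbers were not taken to pair them. Calls over all genes between the CCl4-treated groups were 74 with DESeq2 and 1294 without both libraries, and with eplerenone against control 1523 with DESeq2, 1351 with total counted reads and 377 with at least 10 counts in every sample. Without cirrhosis replicate 5 calls over all genes in cirrhosis were 4612.

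Differences near 0 changed sign, none of them called. With total counted reads, Notch3 was 0.00355 in cirrhosis and Notch1 0.35 with eplerenone against control. Notch1 in that comparison was 0.00483 with no filter, 0.0329 with at least 10 counts in every sample and 0.00367 with only the 2 groups. Without both libraries, Hes1 was −0.053 in cirrhosis against control, and Notch2 was 0.0224 and Notch4 −0.27 between the CCl4-treated groups. Without 1 library each, the log2FC ran from −0.49 to 0.11 for Notch3 and from −0.13 to 0.51 for Hes1 in cirrhosis, from −0.16 to 0.10 for Notch1 with eplerenone against control, and from −0.31 to 0.0341 for Notch2 and −0.0948 to 0.52 for Notch4 between the CCl4-treated groups. Of 378 values without 1 library, 348 kept their direction and their side of the threshold, as did 234 of 249 under the other settings. Depth limits Hey1 and Jag2 most, with 0 to 16 and 4 to 83 reads per library.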
